A study of Homo sapiens with 6 samples.

Results

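The insulin and IGF axis was described through 10 genes: the receptors INSR, IGF1R and IGF2R, the adaptors IRS1 and IRS2, and the secreted binding proteins IGFBP2, IGFBP3, IGFBP4, IGFBP5 and IGFBP6. They were chosen by symbol, and each was found once among the 61806 genes of the deposited table. RNA was sequenced from Ishikawa cells, an established line of human endometrial adenocarcinoma. The 3 TEFM libraries are of Ishikawa derivatives made to overexpress TEFM, a factor that keeps RNA polymerase moving along mitochondrial DNA, and the 3 EV libraries are the set labelled EV, an abbreviation the sources used here do not explain. Both groups share the line and a medium of DMEM with fetal bovine serum, and the labels give no further treatment. The sources used here do not say whether the TEFM cells are 1 clone or a pool, or which promoter drives TEFM. By the submitters' account these are independent biological replicates; how they were kept apart is not stated, so p-values speak for the spread among these libraries only.

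Insulin, IGF1 and IGF2 act on cells through a pair of related receptor tyrosine kinases, the insulin receptor and the IGF1 receptor. The activated receptors phosphorylate adaptors of the IRS family, which recruit PI3K and so switch on AKT, mTORC1 and growth. IGF2R, also the mannose 6-phosphate receptor, has no kinase; it takes IGF2 to lysosomes and carries lysosomal enzymes. Binding proteins hold IGFs outside the cell and govern how much reaches the receptors. In the endometrium, IGF signalling is known as a partner of oestrogen in epithelial growth, and the binding proteins vary over the cycle.

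Library totals lay between 14252668 and 17891047 counts. TEFM itself had 23.65, 22.72 and 23.98 FPKM in the TEFM libraries, against 4.13, 4.24 and 4.55 FPKM in EV, so the targeted gene fits the labels. FPKM is the authors' count scaled by exon length and library total. Of 9 markers of endometrial epithelium, 7 were expressed at a mean of at least 1 FPKM, including PAX8 and EPCAM. The hormone receptor genes ESR1 and PGR were near 0, with 6 and 12 counts summed over the TEFM libraries and 1 and 40 over the EV libraries. The summed marker level was 712 to 746 FPKM in TEFM libraries and 545 to 595 FPKM in EV libraries. Of the 7 tested markers 6 were higher, beside 21.7% of all tested genes. PAX8 did not pass (log2 fold change 0.05, edgeR adjusted p = 0.292). Stromal, endothelial and leukocyte markers summed to at most 2.37, 0.530 and 0.790 FPKM in any library. The stromal gene DCN, the decidual gene PRL and the T cell gene CD3E were at 0 throughout. Of the same stromal list, COL1A1 averaged 1.61 FPKM in TEFM and 1.58 FPKM in EV. COL1A2 had 133 counts in TEFM and 78 in EV, summed over libraries. The part of the rise in 6 epithelial markers in the results below was not tested.

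Between the groups, the kinase receptors and their adaptors were higher in TEFM cells, and the binding proteins went different ways. INSR, IGF1R, IRS1 and IGFBP6 rose, IGF2R, IGFBP3 and IGFBP5 fell, and IGFBP2 did not pass the test. That is 4 higher and 3 lower among the 8 members averaging 1 FPKM or more, by edgeR's quasi-likelihood test at an adjusted p of 0.05. Over all 14254 genes tested in this way 43.4% passed, 21.7% in each direction, so a call is common in this comparison. IRS2 and IGFBP4 lay below the level filter and are given separately. The FPKM of the groups did not overlap for 5 of the 10 genes with TEFM above EV and for 3 with TEFM below. Those 5 include IRS2, which is below the level filter. The shares over the 14254 genes, all above that filter, were 21.1% and 30.5%, together 51.6%. In bulk RNA, fewer cells with a transcript and less of it per cell cannot be told apart.

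**Figure D1:**
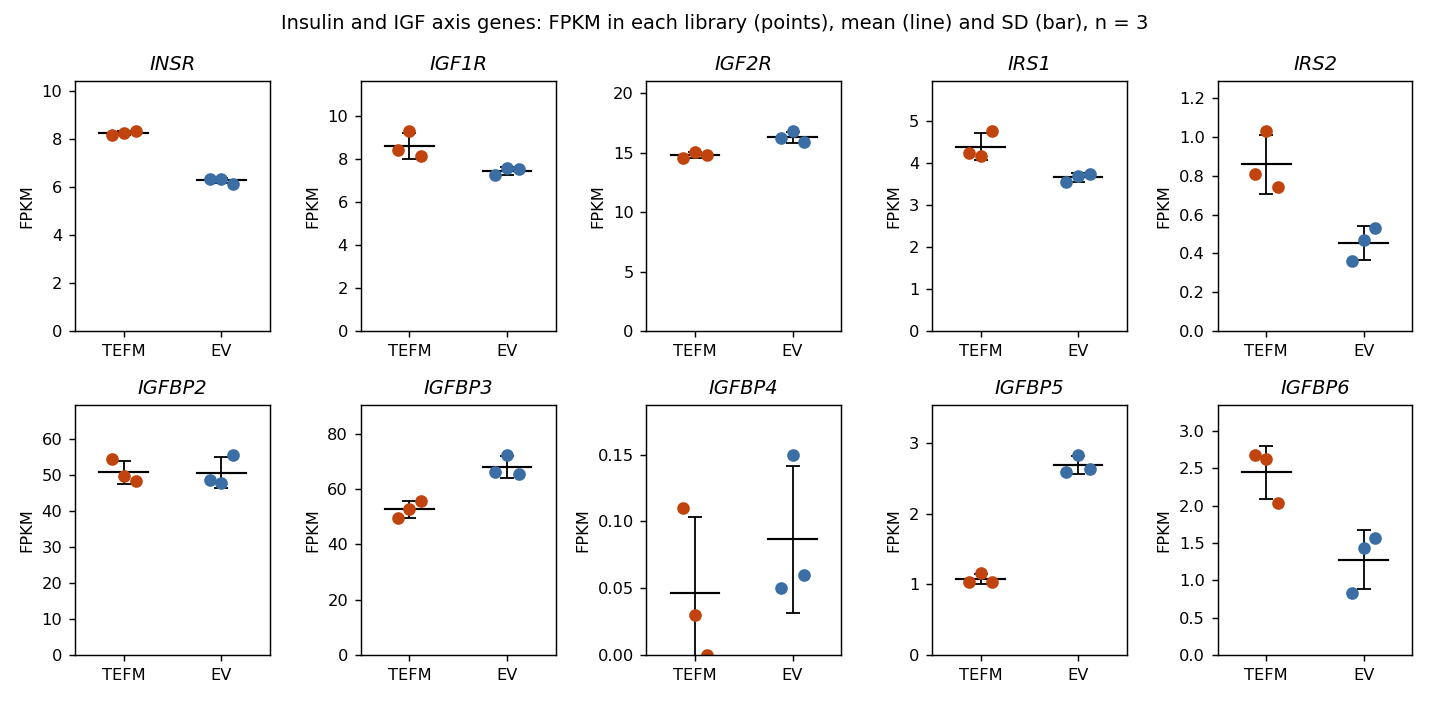
FPKM of the 10 genes in each library, TEFM left and EV right, each panel with its own axis from 0; lines are means and bars SD of 3 libraries. INSR sits at 8.17 to 8.32 FPKM in TEFM and 6.14 to 6.34 FPKM in EV, IGFBP5 at 1.03 to 1.16 FPKM in TEFM and 2.60 to 2.84 FPKM in EV, and the IGFBP2 groups overlap.

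The promoters of 4 of these genes are shown because the adaptor pair IRS1 and IRS2 moved the same way, while IGFBP5 and IGFBP6 moved in opposite ways. Each run covers 250 bases before to 50 after a transcription start in RefSeq (GRCh38.p14), 5′ to 3′ on the gene's strand. Capitals mark matches, on either strand, to CACGTG (the E-box), CAAAACA (the insulin response element bound by FOXO factors) or GTAAACA (a FOXO site). IRS1 lies at chr2:226799771-226800070, minus strand; IRS2 at chr13:109786534-109786833, minus strand; IGFBP5 at chr2:216695500-216695799, minus strand; and IGFBP6 at chr12:53097417-53097716, plus strand.
IRS1 promoter: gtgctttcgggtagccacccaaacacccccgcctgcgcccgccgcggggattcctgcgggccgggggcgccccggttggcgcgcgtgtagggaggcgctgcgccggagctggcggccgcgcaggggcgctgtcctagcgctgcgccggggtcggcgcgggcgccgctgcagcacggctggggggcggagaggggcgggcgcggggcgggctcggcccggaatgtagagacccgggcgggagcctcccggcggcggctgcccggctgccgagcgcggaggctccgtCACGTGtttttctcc
IRS2 promoter: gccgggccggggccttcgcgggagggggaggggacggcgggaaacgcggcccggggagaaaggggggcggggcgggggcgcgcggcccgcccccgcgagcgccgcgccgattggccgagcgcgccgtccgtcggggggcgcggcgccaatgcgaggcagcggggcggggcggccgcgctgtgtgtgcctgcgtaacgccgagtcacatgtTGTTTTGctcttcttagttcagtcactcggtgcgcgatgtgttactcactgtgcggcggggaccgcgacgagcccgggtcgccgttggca
IGFBP5 promoter: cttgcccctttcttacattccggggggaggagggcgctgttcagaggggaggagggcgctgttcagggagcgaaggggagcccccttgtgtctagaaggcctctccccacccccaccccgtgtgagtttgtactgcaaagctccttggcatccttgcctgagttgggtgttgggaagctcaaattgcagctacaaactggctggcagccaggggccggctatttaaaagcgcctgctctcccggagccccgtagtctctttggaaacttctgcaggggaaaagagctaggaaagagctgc
IGFBP6 promoter: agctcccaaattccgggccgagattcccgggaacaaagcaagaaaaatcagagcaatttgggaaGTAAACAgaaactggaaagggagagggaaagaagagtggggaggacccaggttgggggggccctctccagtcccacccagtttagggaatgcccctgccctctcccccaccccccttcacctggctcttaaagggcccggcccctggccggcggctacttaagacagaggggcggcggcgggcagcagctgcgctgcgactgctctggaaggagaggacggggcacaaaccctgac

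The IRS2 window held 1 match to CAAAACA, read as TGTTTTG on the gene's strand and starting 40 bases before the transcription start; 4.92% of all 35116 RefSeq promoter windows of this length hold that motif. IGFBP6 held 1 match to GTAAACA, 186 bases before the RefSeq start, a motif of 3.42% of windows. That start lies downstream of the gene start in the deposited annotation, 53097436, so by that annotation the match falls inside the gene. IRS1 held 1 E-box, which 7.26% of windows hold, and IGF2R held 3. No window of INSR, IGF1R, IGFBP2, IGFBP3 or IGFBP5 held any of these 3 motifs. TATAAA, TCACNCCAC (a sterol response element), TGATGNAA (an ATF4 composite element) and TGACGTCA (a cAMP response element) were also searched. Among the members only the IGFBP4 window matched any of those, with 1 TATAAA, a motif of 11.5% of windows. GGGCGG, the GC box of SP1, is in 45.0% of windows and was matched in members that rose and members that fell: 6 times in IGF2R, 5 in IRS2, 4 each in INSR and IRS1, 2 each in IGF1R, IGFBP3 and IGFBP4, 1 in IGFBP6 and not in IGFBP5. Of the 3 IGFBP2 windows, 2 held 1 match each. All 10 genes had a window in the table. These motifs were chosen after the values and sequences were seen, and a match describes letters, not binding.

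Among the receptors, INSR, the insulin receptor gene (ENSG00000171105, chromosome 19, 7112255 to 7294414, minus strand), changed most. It had 8.17, 8.24 and 8.32 FPKM in TEFM cells, against 6.33, 6.34 and 6.14 FPKM in EV cells. Every TEFM library was above every EV library, and libraries within a group lay close together. EdgeR put the rise at 1.35-fold, a log2 fold change of 0.43 (SE 0.0507, adjusted p = 1.75e-07).

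IGF1R, the receptor for IGF1 and IGF2 (ENSG00000140443, chromosome 15, 98648539 to 98964530), rose less. Its values were 8.41, 9.28 and 8.11 FPKM in TEFM cells, against 7.22, 7.56 and 7.50 FPKM in EV cells. TEFM replicate 2 was the highest, and the groups did not overlap. Its log2 fold change was 0.25 (SE 0.0506, edgeR adjusted p = 0.000241). The 3 genes on the opposite strand that overlap IGF1R had at most 15 counts each, summed over a group. IGF1R had 5864 counts in TEFM and 5070 in EV. These counts do not show how reads in the overlaps were assigned, so sharing of reads with IGF1R was not tested.

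Measured against each other in FPKM, the receptors drew closer. The ratio of IGF1R to INSR FPKM was 1.03, 1.13 and 0.975 in TEFM libraries and 1.14, 1.19 and 1.22 in EV libraries. Means were 1.04 ± 0.0767 in TEFM and 1.18 ± 0.0410 in EV (SD, n = 3 each), with a two-sided exact permutation p of 0.1, the smallest that 3 against 3 libraries allow. The ratio of TEFM replicate 2 lay next to that of EV replicate 1. On raw counts, which are not divided by exon length, the mean ratio was 1.34 in TEFM and 1.52 in EV.

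IGF2R, the scavenging receptor (ENSG00000197081, chromosome 6, 159969082 to 160113507), went the other way by a small margin. It had 14.59, 15.06 and 14.77 FPKM in TEFM cells, against 16.21, 16.81 and 15.89 FPKM in EV cells. The groups did not overlap in FPKM, yet with composition scaling the log2 fold change was only -0.10 (SE 0.0371, edgeR adjusted p = 0.0334). That call was lost with upper-quartile scaling (adjusted p = 0.0746) and without TEFM replicate 1 (0.0907), TEFM replicate 3 (0.0740), EV replicate 1 (0.0968) or EV replicate 2 (0.127), all by edgeR. Over 17 alternatives the log2 fold change lay between -0.14 and -0.08, and the call held in 11.

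The partners of IGF2R in enzyme sorting and its recycling changed little. Of 10 tested mannose 6-phosphate and retromer genes, 3 rose and 7 did not pass, beside 21.7% of all tested genes in each direction. The median log2 fold change was 0.07 against -0.00 for all tested genes. M6PR, the smaller mannose 6-phosphate receptor gene, was at 49.0 ± 2.55 FPKM in TEFM and 45.4 ± 0.934 FPKM in EV (log2 fold change 0.15, edgeR adjusted p = 0.00686). The retromer genes VPS26A and VPS35 rose by 0.16 and 0.10. None of the 3 passed with limma on log2(FPKM + 1) or without TEFM replicate 1, and VPS35 passed in 3 of 17 alternatives.

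Both adaptors were higher in TEFM cells. IRS1, an adaptor of both kinase receptors (ENSG00000169047, chromosome 2, 226731312 to 226799820, minus strand), had 4.23, 4.17 and 4.75 FPKM in TEFM cells, against 3.53, 3.68 and 3.74 FPKM in EV cells. No libraries overlapped. In log2 terms the rise was 0.30 (SE 0.0720, edgeR adjusted p = 0.00139).

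IRS2, its close relative and a known FOXO target (ENSG00000185950, chromosome 13, 109752695 to 109786583, minus strand), was scarce. Counts were 111, 148 and 86 in the TEFM libraries, against 52, 58 and 69 in EV, or 0.81, 1.03 and 0.74 FPKM against 0.36, 0.47 and 0.53 FPKM. All 3 TEFM values were above all 3 EV values. With a mean of 0.657 FPKM it missed the level filter, but all 6 libraries held enough counts for edgeR's count filter (18011 genes, of which 39.7% passed, 20.1% higher and 19.7% lower). There it rose 1.97-fold, by 0.98 in log2 (SE 0.190, edgeR adjusted p = 0.000151). On log2(FPKM + 1), a scale that compresses low genes, limma gave 0.35 (adjusted p = 0.0143).

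Relative to IRS1, IRS2 gained ground. The ratio of IRS2 to IRS1 FPKM was 0.191, 0.247 and 0.156 in TEFM libraries and 0.102, 0.128 and 0.142 in EV libraries. Means were 0.198 ± 0.0460 in TEFM and 0.124 ± 0.0202 in EV (SD, n = 3 each), and the two-sided exact permutation p was 0.1, the smallest possible. IRS1 stayed the more abundant adaptor in every library.

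**Figure D2:**
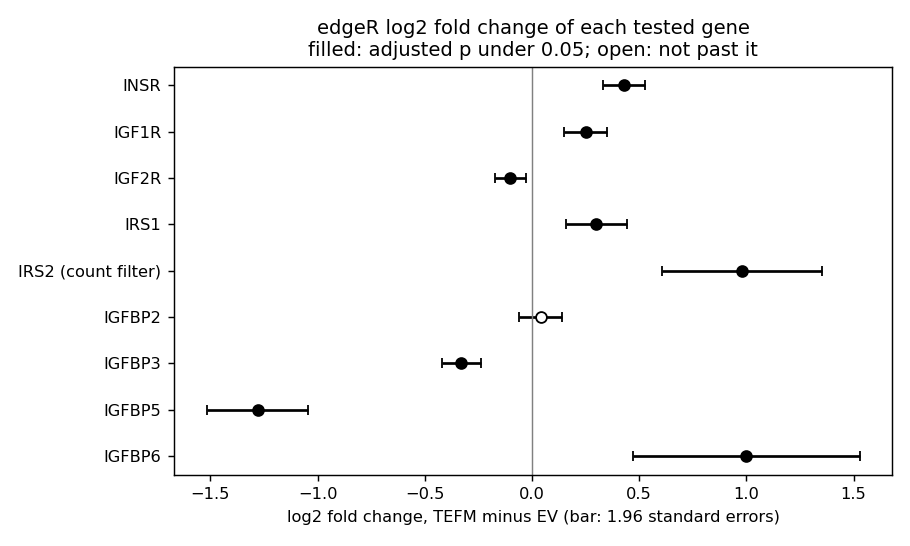
Log2 fold changes (TEFM minus EV) by edgeR with bars of the 95% interval; filled points passed an adjusted p of 0.05. IRS2 is from the fit with the count filter, IGFBP4 had too few counts for either fit, and IGFBP2 at 0.04 is the 1 open point.

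IGFBP3 and IGFBP2 made up most binding protein RNA in both groups. IGFBP3, the main carrier of IGFs in serum (ENSG00000146674, chromosome 7, 45912245 to 45921874, minus strand), had 49.64, 52.90 and 55.73 FPKM in TEFM cells, against 66.15, 72.42 and 65.37 FPKM in EV cells. Its groups did not overlap. It fell, with a log2 fold change of -0.33 (SE 0.0460, edgeR adjusted p = 3.02e-06).

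IGFBP2, which favours IGF2 as its ligand (ENSG00000115457, chromosome 2, 216632828 to 216664436), overlapped between groups. It had 54.38, 49.64 and 48.25 FPKM in TEFM cells, against 48.53, 47.84 and 55.58 FPKM in EV cells. EV replicate 3 held the highest value of the 6 and TEFM replicate 1 the next. The difference in log2 was 0.04, with a 95% interval of -0.05 to 0.14 (edgeR adjusted p = 0.518). Without TEFM replicate 1 it was -0.01 (adjusted p = 0.928), and without EV replicate 3 it was 0.11 (edgeR adjusted p = 0.0400), so single libraries decide its sign and its call.

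Summed over IGFBP1 to IGFBP7, binding protein RNA was 108, 107 and 107 FPKM in TEFM libraries, against 119, 125 and 126 FPKM in EV libraries. IGFBP3 took 49.0% ± 3.02 of the sum in TEFM and 55.1% ± 2.94 in EV (SD, n = 3 each). IGFBP2 took 44.9% to 50.2% in TEFM and 38.1% to 44.1% in EV. The remaining genes held 3.83% ± 0.489 in TEFM and 3.92% ± 0.250 in EV, though their makeup changed, as described next. In EV cells IGFBP3 exceeded IGFBP2 in every library, by 1.18 to 1.51 times. In TEFM cells the ratio was 0.913, 1.07 and 1.16, so the pair was not separated.

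**Figure D3:**
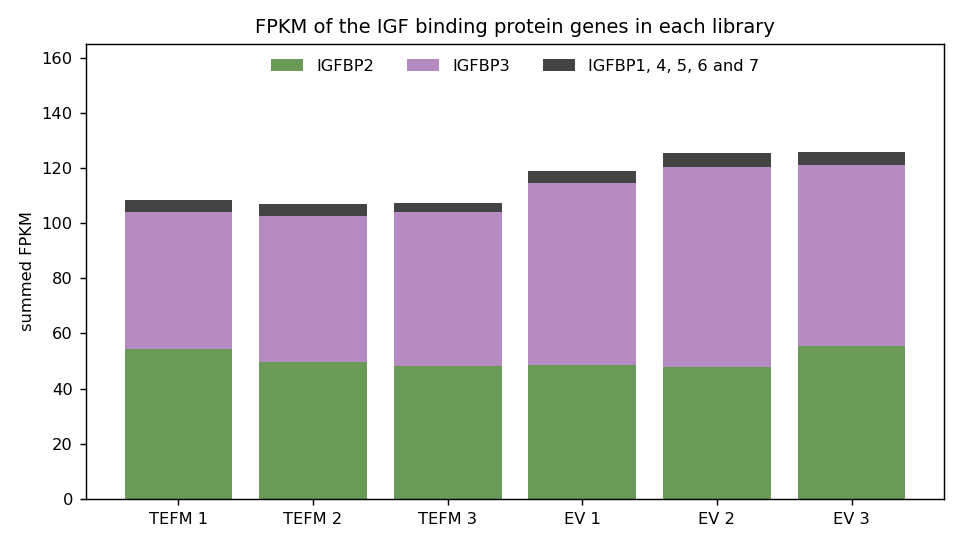
Stacked FPKM of the IGF binding protein genes in each library, TEFM left and EV right. The sums are 107 to 108 FPKM in TEFM and 119 to 126 FPKM in EV, and the IGFBP3 segment differs most.

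IGFBP5, a binding protein that also attaches to extracellular matrix (ENSG00000115461, chromosome 2, 216672105 to 216695549, minus strand), had the largest fall of the tested members. It had 1.04, 1.16 and 1.03 FPKM in TEFM cells, against 2.60, 2.84 and 2.64 FPKM in EV cells. Counts were 114, 132 and 95 in TEFM and 301, 277 and 274 in EV, and the groups lay far apart. The fall left 0.413 of the EV level, a log2 fold change of -1.28 (SE 0.121, edgeR adjusted p = 5.76e-09). An absolute log2 fold change above this was seen for 2.82% of the 14254 tested genes.

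IGFBP5 lies 7.67 kb from IGFBP2, tail to tail, and the neighbours differed in their change: -1.28 for IGFBP5 and 0.04 for IGFBP2. The 3 genes whose log2(FPKM + 1) tracked IGFBP5 most closely over the 6 libraries, of 7571 with a mean of at least 5 FPKM, were SLC38A1, ZDHHC21 and EFNA5. Their Pearson r was 0.9992, 0.9991 and 0.9990. With samples in 2 separate groups, such values mostly restate the group difference. SLC38A1, a glutamine transporter gene, had 83.98, 86.84 and 84.47 FPKM in TEFM, against 110.40, 113.14 and 109.17 FPKM in EV.

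IGFBP6, which binds IGF2 in preference to IGF1 (ENSG00000167779, chromosome 12, 53097436 to 53102345), was the 1 binding protein gene among those tested that rose. It had 2.68, 2.62 and 2.03 FPKM in TEFM cells, against 0.83, 1.43 and 1.57 FPKM in EV cells. Counts were 61, 62 and 39 in TEFM and 20, 29 and 34 in EV, so the groups were close at TEFM replicate 3 and EV replicate 3. It rose by 1.00 in log2 (SE 0.270, edgeR adjusted p = 0.00422). Limma on log2(FPKM + 1) gave 0.61 for IGFBP6 and -0.83 for IGFBP5, smaller because both genes are low.

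The order of these minor binding proteins turned over. The ratio of IGFBP6 to IGFBP5 FPKM was 2.58, 2.26 and 1.97 in TEFM libraries, against 0.319, 0.504 and 0.595 in EV libraries. IGFBP6 was therefore above IGFBP5 in all 3 TEFM libraries and below it in all 3 EV libraries. This ratio was chosen after its values were seen and was not tested.

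IGFBP4, an inhibitory binding protein (ENSG00000141753, chromosome 17, 40443450 to 40457725), was barely detected. Its counts were 4, 1 and 0 in TEFM libraries and 2, 5 and 2 in EV libraries. No difference was detectable at this depth.

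Ordered by FPKM, the members ran from IGFBP3 down to IGFBP4 in both groups. In EV cells the order was IGFBP3, IGFBP2, IGF2R, IGF1R, INSR, IRS1, IGFBP5, IGFBP6, IRS2 and IGFBP4, and no neighbours in it overlapped. In TEFM cells IGFBP6 stood above IGFBP5, the rest of the order was the same, and 3 pairs of neighbours overlapped or touched: IGFBP3 with IGFBP2, IGF1R with INSR, and IGFBP5 with IRS2. IGFBP2 and IGFBP3 were above 95.3% and 96.5% of the tested genes in mean level over the 6 libraries.

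Ligand RNA was at the limit of detection. INS, the insulin gene, had 0 counts in all 6 libraries, which allows up to 0.168 to 0.21 CPM, 3 counts of a library; this covers counting error only. IGF1 had 5, 5 and 4 counts in TEFM libraries, against 2, 0 and 0 in EV libraries. IGF2 had 7, 7 and 6 counts in TEFM libraries, against 1, 0 and 4 in EV libraries. With no filter on low values 37256 genes were tested and 18.7% passed, 9.46% higher and 9.23% lower. Neither ligand passed there (edgeR adjusted p = 0.149 for IGF1 and 0.148 for IGF2).

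IGFBP1, the binding protein of decidualised stroma and a FOXO target, had 1, 7 and 5 counts in TEFM and 12, 4 and 11 in EV. IGFBP7, a distant relative, had 17, 14 and 7 counts in TEFM and 16, 18 and 10 in EV. IGFALS, which stabilises circulating IGF complexes, had 42 counts in TEFM and 59 in EV, summed over libraries, and IGFBPL1 had 4 in TEFM and 10 in EV. All 4 groups of values overlapped, and none passed without a filter on low values (edgeR adjusted p from 0.415 to 0.837).

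Of 4 tested genes that act on or lie beside IGF2 RNA, 2 rose and 2 did not pass. Among all tested genes 21.7% rose. IGF2BP1, an RNA-binding protein of foetal tissue and tumours, had 5.84, 5.46 and 5.35 FPKM in TEFM cells, against 0.95, 1.00 and 1.16 FPKM in EV cells. Its log2 fold change was 2.47 (SE 0.0881, edgeR adjusted p = 9.34e-17), beside an IGF2 RNA near 0. The paralogues IGF2BP2 and IGF2BP3 did not pass, at 21.4 ± 0.775 and 8.98 ± 0.242 FPKM in TEFM and 22.4 ± 1.53 and 9.35 ± 0.258 FPKM in EV. H19, the imprinted RNA next to IGF2, overlapped between groups, at 1.16, 4.26 and 2.63 FPKM in TEFM and 1.61, 1.23 and 0.53 FPKM in EV. It passed (log2 fold change 1.28, edgeR adjusted p = 0.00279), but not without TEFM replicate 2 (0.75, edgeR adjusted p = 0.104) nor with DESeq2 (adjusted p = 0.117).

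Among proteases that free IGFs from binding proteins, and their inhibitors, 2 of 3 tested genes rose and 1 fell. The share over all tested genes was 21.7% in each direction. STC2, an inhibitor of the protease PAPP-A, had 12.85, 21.39 and 17.13 FPKM in TEFM cells, against 44.58, 43.36 and 46.18 FPKM in EV cells. TEFM replicate 1 was the lowest, and all TEFM values were below all EV values (log2 fold change -1.34, edgeR adjusted p = 2.44e-11). STC1, a related inhibitor, was abundant and rose, with 495 ± 12.1 FPKM in TEFM and 424 ± 5.45 FPKM in EV. HTRA1, a serine protease that cleaves binding proteins, rose by a log2 fold change of 0.30. PAPPA itself was scarce, with 34 counts in TEFM and 40 in EV summed over 3 libraries, and PAPPA2 had 2 in TEFM and 0 in EV.

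Of 8 tested genes that process or serve the receptors, 2 rose and 2 fell, near the 21.7% of all tested genes in each direction. FURIN, the convertase that cleaves both proreceptors, rose to 33.3 ± 1.05 FPKM in TEFM, against 26.3 ± 1.78 FPKM in EV (log2 fold change 0.38, edgeR adjusted p = 4.10e-07). GAB1, a docking protein, fell by 0.48 on the log2 scale, and SOS1, which activates RAS, had a log2 fold change of -0.14. SH2B1, an adaptor that enhances insulin receptor signalling, rose by 0.24 (edgeR adjusted p = 0.0163). SH2B1 and SOS1 both missed the threshold without TEFM replicate 1 (edgeR adjusted p = 0.0819 and 0.0628).

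Among 9 tested genes listed here as inhibitors of receptors and adaptors, 4 fell, 1 rose and 4 did not pass. Their median log2 fold change was -0.14, and 21.7% of all tested genes passed in each direction. Whether each of them, NEDD4 included, acts as an inhibitor in these cells was not tested. GRB10, which binds and restrains both receptors, fell to 9.01 ± 0.231 FPKM in TEFM, against 13.5 ± 1.05 FPKM in EV (log2 fold change -0.54, edgeR adjusted p = 9.77e-09). NEDD4, a ubiquitin ligase that acts with GRB10 on the IGF1 receptor, stood at 1.64 ± 0.108 FPKM in TEFM and 3.69 ± 0.343 FPKM in EV (log2 fold change -1.13). SOCS2 had a log2 fold change of -0.78. SOCS3, a cytokine-induced inhibitor that can target IRS proteins, was the 1 tested gene of this list that rose. It had 2.62, 2.56 and 2.95 FPKM in TEFM, against 1.00, 1.24 and 1.03 FPKM in EV (log2 fold change 1.36, edgeR adjusted p = 1.37e-06). SOCS1, below the level filter, passed with the count filter (1.13, edgeR adjusted p = 0.0365), although its groups overlap.

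**Figure D4:**
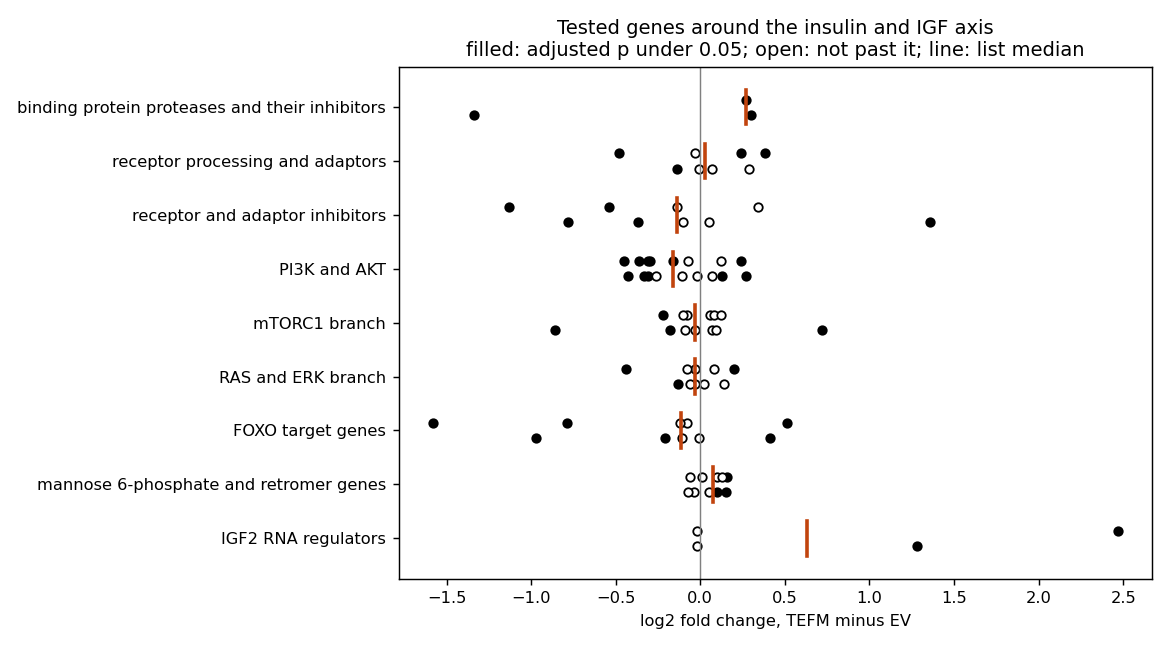
Log2 fold changes (TEFM minus EV) of the tested genes around the axis by list; filled points passed an adjusted p of 0.05 and lines are list medians. IGF2BP1 at 2.47 and TXNIP at -1.58 lie farthest out, and the PI3K and AKT median is -0.16.

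Downstream, 8 of 17 tested PI3K and AKT genes fell, 3 rose and 6 missed the threshold, with a median log2 fold change of -0.16. Over all tested genes 21.7% passed in each direction and the median was -0.00; the difference was not tested. The list holds activators and inhibitors. GSK3B, a kinase that AKT inactivates, was at 8.76 ± 0.166 FPKM in TEFM and 11.6 ± 0.186 FPKM in EV (log2 fold change -0.36). The regulatory subunit gene PIK3R3 (-0.31) and the transcription factor gene FOXO3 (-0.43) fell too, all 3 with an edgeR adjusted p of at most 2.21e-06.

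In the mTORC1 branch 1 of 13 rose and 3 fell, and the median was -0.03. For this branch and the next, the share over all tested genes was 21.7% in each direction. RPS6KB2, an S6 kinase gene, rose to 13.2 ± 0.886 FPKM in TEFM, against 8.20 ± 0.257 FPKM in EV (log2 fold change 0.72). DEPTOR, an inhibitor of mTOR, fell to 1.87 ± 0.0889 FPKM in TEFM, against 3.49 ± 0.207 FPKM in EV (-0.86). EIF4EBP1, a translation repressor, changed by -0.22 and MTOR by -0.18; MTOR missed the threshold without EV replicate 2 (edgeR adjusted p = 0.145) and without TEFM replicate 1 (0.0909). In the RAS and ERK branch NRAS rose (0.20) and BRAF (-0.44) and MAPK3 (-0.13) fell among 10 tested. MAPK3 kept its call in 7 of 17 alternatives.

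Genes listed here as FOXO targets, which FOXO factors can switch on when insulin signalling is low, showed no common direction. Among 10 tested there were 2 that rose and 4 that fell, while 4 missed the threshold, with a median log2 fold change of -0.11. Of all tested genes 21.7% passed in each direction. FBXO32, below the level filter, rose by 0.78 with the count filter (edgeR adjusted p = 0.0101). IRS2 and IGFBP1, also FOXO targets, are given above and not counted here. TXNIP, an arrestin that limits glucose uptake, had 42.10, 50.92 and 47.48 FPKM in TEFM cells, against 140.77, 177.50 and 112.64 FPKM in EV cells (log2 fold change -1.58, edgeR adjusted p = 1.91e-12). SESN3, which restrains mTORC1, fell (-0.79). BCL2L11, which encodes the death protein BIM, rose (0.51), as did PDK4, an inhibitor of pyruvate oxidation (0.41). FOXO1 itself stood at 4.70 ± 0.144 FPKM in TEFM and 5.07 ± 0.530 FPKM in EV (edgeR adjusted p = 0.547). Signalling activity was not measured, and whether FOXO factors control these genes, TXNIP included, in Ishikawa cells was not tested.

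The genomic surroundings differed between members. Around INSR, 17 of 32 tested genes within 1 Mb rose and 3 fell, with a median log2 fold change of 0.24, beside 0.43 for INSR. The nearest tested coding genes were ZNF557 (0.04, edgeR adjusted p = 0.817) and ARHGEF18 (0.34, edgeR adjusted p = 0.000520). Of all tested genes 21.7% passed in each direction, and their median was -0.00. In either direction 62.5% of the INSR neighbours passed, beside 43.4% of all tested genes. That share was the same around IGFBP2, higher around IRS1 and IGFBP3, and lower around the remaining members. The part of the neighbours' level around INSR in the INSR result was not tested. Around IGFBP5 the 8 neighbours had a median of -0.11, around IGFBP3 the 5 neighbours had 0.16, and around IGFBP6 the 32 neighbours had 0.02. IGFBP5 (-1.28) lay below all its neighbours, the lowest of which was at -0.58, whereas IGFBP3 (-0.33) and IGFBP6 (1.00) lay within the range of theirs. IRS1 had 4 tested neighbours, among them RHBDD1, 35.8 kb away, which went the other way (-0.62).

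**Figure D5:**
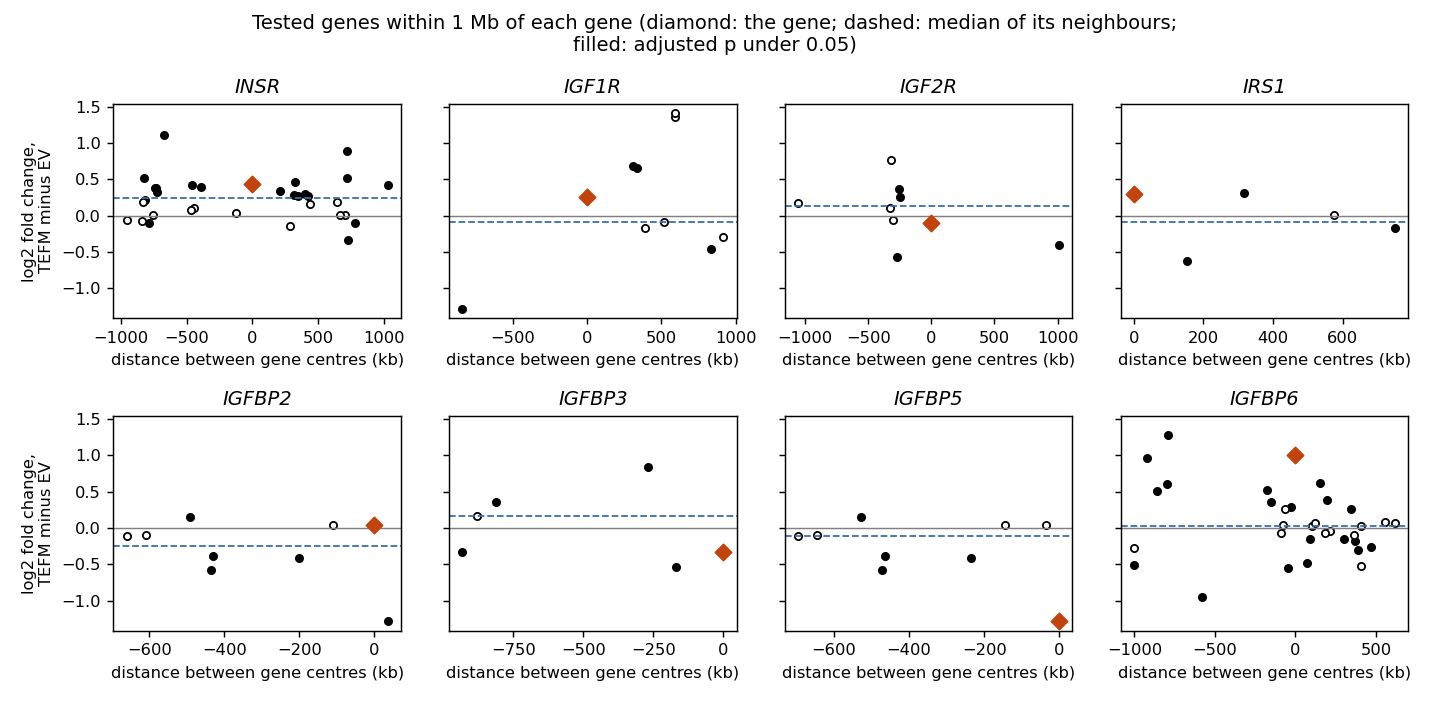
Log2 fold change (TEFM minus EV) of tested genes within 1 Mb of each tested member, by distance between gene centres; the diamond is the member, the dashed line the median of its neighbours, and filled points passed an adjusted p of 0.05. INSR sits among neighbours with a median of 0.24, whereas IGFBP5 at -1.28 lies below all of its own.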

How the data were processed

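Per the labels' protocols, RNA was extracted with TRIzol, selected with oligo(dT) beads, fragmented, primed at random and amplified by PCR. The submitters' processing notes name cutadapt 1.9.1 and the build hg19. Aligner, counter and strandedness: not given in the sources used here. Coordinates of 99.9% of 58254 shared gene IDs overlap GENCODE v29 (GRCh38), so they are printed as GRCh38. The deposited table holds raw whole-number counts per gene, and FPKM that the authors computed per exonic kilobase and column total (recomputed within 0.005).

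Counts were tested with edgeR 4.0.16 (R 4.3.3): TMM scaling (0.982 to 1.02), quasi-likelihood F test, two-sided, Benjamini-Hochberg adjustment over the 14254 genes with a mean of at least 1 FPKM. These hold 98.8% of counts. Standard errors come from the F statistic. The common biological coefficient of variation was 4.81%. Chi-square per degree of freedom between libraries was 2.13 to 4.21 within groups, above sampling noise. Alternatives used other scaling, filters, DESeq2 1.42.0, limma 3.58.1 with a pseudocount of 1 or 0.1, robust dispersions, leaving out each library, and a replicate block.

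Named genes are the 10 members, TEFM, up to 4 called genes per list by smallest p (1 is not reported here), the ligands and other binding proteins, and the nearest neighbours; further genes named were chosen after their values were seen. Members and lists were chosen with earlier results of these data known.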

Additional observations from a re-analysis of the deposited data

How the results depend on the processing

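The calls and signs of INSR, IGF1R, IRS1, IGFBP3, IGFBP5 and IGFBP6 held under every alternative that could be run for them. Their log2 fold changes ranged from 0.35 to 0.45 for INSR, 0.19 to 0.29 for IGF1R, 0.21 to 0.33 for IRS1, -0.37 to -0.28 for IGFBP3, -1.34 to -0.83 for IGFBP5 and 0.61 to 1.18 for IGFBP6. The call and sign of IRS2 held under all 15 alternatives to its fit with the count filter. These include the fit with no filter on low values. With a filter at a mean of 5 FPKM, 2 members were higher, because IRS1 and IGFBP6 were no longer tested, and 2046 genes were higher overall. IGFBP2 turned to -0.01 without TEFM replicate 1 and passed without EV replicate 3 (0.11). The shared replicate numbers do not pair the libraries: deviations of same-numbered libraries correlated at -0.09, 0.06 and -0.07. With the replicate block 4 members were higher and 2 lower, and 2986 genes were higher and 2949 lower; IGF2R had an adjusted p of 0.0509. The differences of the ratios kept their sign without each library and on raw counts. IRS2, IGFBP6 and IGFBP5 rest on 20 to 301 counts per library, and the ligands and IGFBP4 on 7 at most, where depth limits any statement.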

Other observations

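Some genes outside the naming rule are given here as values, chosen after they were seen. SOCS1, an inhibitor related to SOCS3, missed the level filter, with 19, 34 and 31 counts in TEFM libraries and 19, 3 and 18 in EV libraries. With the count filter it passed (log2 fold change 1.13, edgeR adjusted p = 0.0365), although the groups overlap. PIK3IP1, which restrains PI3K, stood at 1.12 ± 0.176 FPKM in TEFM and 2.28 ± 0.188 FPKM in EV (SD, n = 3 each; log2 fold change -0.97). The nearest tested coding gene before IGF1R was ARRDC4, a relative of TXNIP 675 kb away, with 11.2 FPKM in TEFM and 27.9 FPKM in EV (log2 fold change -1.28, edgeR adjusted p = 4.04e-12). On its other side SYNM, 134 kb away, rose by 0.68.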
